A study of Mus musculus with 7 samples.

Results

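Mediator is a large protein complex that carries signals from DNA-bound activators and repressors to RNA polymerase II. Its head and middle modules contact the polymerase and its general factors, its tail module is the main landing site for activators, and a separable kinase module built around Cdk8 or Cdk19 with cyclin C can detach and block the polymerase. The genes of the complex were taken by name from the counts of 7 mouse Group 3 medulloblastomas (G3 MBs), as every symbol made of Med and a number, with or without a final l, plus Ccnc, Cdk8 and Cdk19. This gave 33 of 34592 genes, of which 9 were placed in the head, 10 in the middle, 7 in the tail and 7 in the kinase module from textbook knowledge. All 33 passed the filter on low counts, among 17389 genes tested.

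The 7 tumors came from 1 tumorsphere line, # 19568, which started from cerebellar granule neuron progenitors carrying a Myc-IRES-GFP retrovirus; the methods of the study describe the model as Trp53-/-; Cdkn2c-/- progenitors of P7 mice. Of the tumors, 4 were labelled WDR11 overexpression (WDR11OE) and 3 were labelled control. The spheres received lentivirus encoding human WDR11 (pCDH-EF1-WDR11-T2A-copGFP) or an empty vector, although the treatment label of the controls reads none. The backbone of the WDR11 construct is pCDH-EF1-MCS-T2A-copGFP, and the paper does not name the empty vector of the controls. The cortex of CD1-nu/nu mice received the infected spheres, and tumors were taken when the mice became moribund. Chunks or cell pellets were frozen, and the methods describe no sorting step for them. RNA came from tumorspheres or tumor chunks per the methods, so each library can hold tumor and host tissue. The labels give no host age, and the methods give one only for the making of the model. All groups therefore share the line, the retroviral Myc and the nude host. They differ by the stated lentiviral cargo and by library series, since the controls and the tumors labelled WDR11OE carry identifiers from separate series. Library series and condition cannot be told apart. The titles of WDR11OE replicates 1 and 2 also share a number that the others lack. Total counts were 35463784, 41397427 and 33417175 in control replicates 1 to 3 and 42252257, 85371523, 32116095 and 87141305 in WDR11OE replicates 1 to 4.

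The label was checked on the overexpressed gene. The counts hold a separate row for the human gene, at 73, 92 and 102 reads in control replicates 1 to 3 and 185, 169, 99 and 57 reads in WDR11OE replicates 1 to 4. As CPM (counts scaled to a common library size with edgeR's TMM factors), this was 2.03, 2.19 and 3.13 CPM in the controls against 4.38, 2.11, 3.05 and 0.624 CPM. The groups overlapped, WDR11OE replicate 4 lay below every control, and the log2 fold change was 0.05 (SE 0.58, adjusted p = 0.961, edgeR quasi-likelihood fit, Benjamini-Hochberg adjusted over all genes tested). The mouse gene Wdr11 was at 58.9, 58.3 and 59.3 CPM in the controls and 66.8, 61.0, 65.7 and 68.9 CPM in the tumors labelled WDR11OE, with an adjusted p = 0.0910. The groups did not overlap for the mouse gene, as for 23.5% of all genes tested in that direction. It did not pass in the TMM fit, at a log2 fold change of 0.16. It passed the test with upper quartile scaling, with the length trend removed and with both trends removed. The human row thus did not separate the groups as the labels would have it. The mouse row lay slightly higher in the tumors labelled WDR11OE, except with the GC trend removed (−0.02). The paper itself reports raised WDR11 transcript by qRT-PCR in tumors of this line. It also reports the protein by immunofluorescence in tumorspheres from such tumors. Each direction given here is that of the libraries labelled WDR11OE over the libraries labelled control.

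RefSeq promoters (GRCm38.p6, from 250 bases before to 50 after the start) were matched to 28 of the 33 genes, some with more than 1 start. Their median GC content was 57.9% with 20 CpG, against 52.7% and 7 CpG over all promoters. Shown are the promoters of the pair of genes that fell at least 2-fold, Med25 and Med15, and of the pair with the highest rises, Med31 and Med6. Capitals mark matches on either strand to CACGTG (the E-box read by Myc and related factors), CCGGAAG (an ETS core) and GCGCATGC (an NRF1-like core).
Med25, chr7:44892375-44892674, minus strand: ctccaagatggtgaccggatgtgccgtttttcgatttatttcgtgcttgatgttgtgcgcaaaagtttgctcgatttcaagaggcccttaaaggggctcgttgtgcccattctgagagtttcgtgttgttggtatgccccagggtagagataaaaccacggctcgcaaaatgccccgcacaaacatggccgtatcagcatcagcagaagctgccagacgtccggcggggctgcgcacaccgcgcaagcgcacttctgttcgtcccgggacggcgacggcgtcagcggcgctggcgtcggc
Med15, chr16:17722851-17723150, minus strand: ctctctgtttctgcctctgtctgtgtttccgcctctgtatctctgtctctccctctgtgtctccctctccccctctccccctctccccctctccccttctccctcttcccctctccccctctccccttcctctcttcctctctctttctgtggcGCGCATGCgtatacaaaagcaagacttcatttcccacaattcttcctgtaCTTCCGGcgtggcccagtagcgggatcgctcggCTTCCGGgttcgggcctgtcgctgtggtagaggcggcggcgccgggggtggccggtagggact
Med31, chr11:72215543-72215842, minus strand: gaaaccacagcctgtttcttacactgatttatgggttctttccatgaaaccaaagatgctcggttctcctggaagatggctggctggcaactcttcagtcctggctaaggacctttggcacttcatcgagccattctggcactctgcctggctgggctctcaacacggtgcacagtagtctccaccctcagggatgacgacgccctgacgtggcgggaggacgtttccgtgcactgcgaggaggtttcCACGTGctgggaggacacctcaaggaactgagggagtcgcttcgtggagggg
Med6, chr12:81594959-81595258, minus strand: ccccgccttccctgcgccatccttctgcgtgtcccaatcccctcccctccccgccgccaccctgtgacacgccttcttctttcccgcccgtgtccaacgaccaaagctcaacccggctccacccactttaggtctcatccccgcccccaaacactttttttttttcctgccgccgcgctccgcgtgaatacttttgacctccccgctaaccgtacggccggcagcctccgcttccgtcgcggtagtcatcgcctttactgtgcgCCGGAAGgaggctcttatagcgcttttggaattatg
The Med25 promoter holds none of the 3 motifs, which says only that these letters are not in this window. CACGTG was found in 7.15% of all 32851 promoters and in 4 of the matched genes (Cdk8, Med17, Med28 and Med31). CCGGAAG was found in 8.86% of all promoters and in 8 matched genes, Med15 and Med6 among them, and GCGCATGC in 2.71% and in 3 matched genes (Med15, Med17 and Med4).

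Across the complex the genes moved in both directions, with most falls per gene in the tail and most values above 0 in the head; differences between modules were not tested. In the tumors labelled WDR11OE, 9 of the 33 Mediator genes were lower and 7 were higher at an adjusted p under 0.05, against 15.8% lower and 18.1% higher of all 17389 genes tested. The median log2 fold change was 0.08 over the 33 genes and 0.08 over all genes. With upper quartile scaling the split was 6 lower and 9 higher, beside 14.8% and 20.4% of all genes. The CPM of the groups did not overlap for 11 lower and 9 higher members, beside 19.1% and 23.5% of all genes. A change of at least 2-fold was reached by Med15 and Med25, both lower, and by no higher member, where the shares over all genes were 3.95% lower and 3.53% higher. When the trend of each tumor with exon GC content was removed by loess, 9 members were lower and 3 higher, against 14.3% and 11.2% of all genes. Of the 16 called members, Med15, Med25, Med6, Med20 and Med31 (5 genes) passed the test in all 18 alternatives, and the other 11 lost the call in 1 or more of them.

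**Figure D1:**
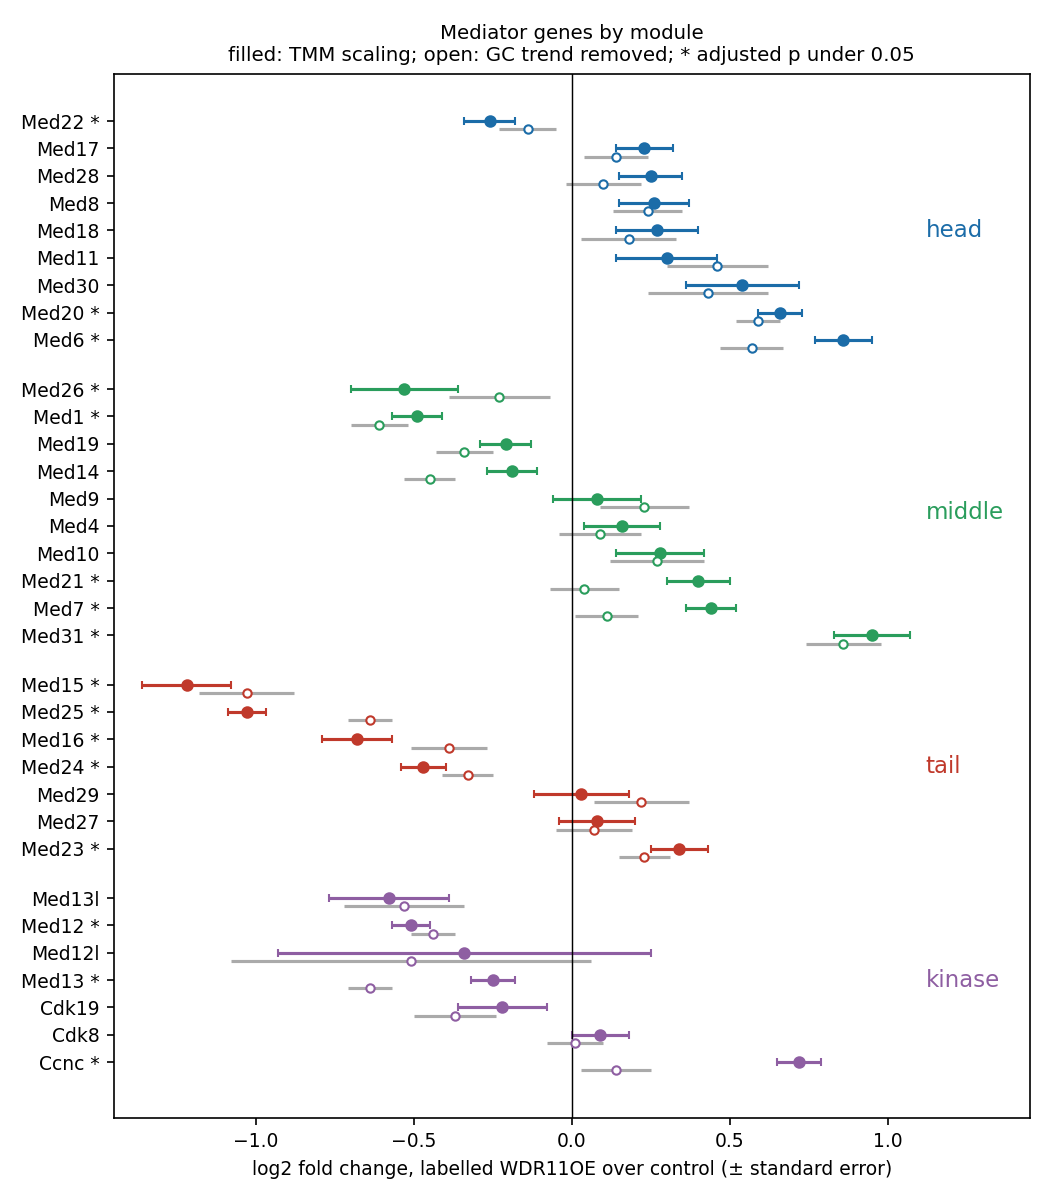
Log2 fold change of each Mediator gene in the tumors labelled WDR11OE over control (x axis), with bars of 1 standard error, ordered within modules; filled points are the TMM fit and open points the fit with the GC trend removed. Med15 and Med25 of the tail lie lowest, at −1.22 and −1.03, and Med31 and Med6 highest, at 0.95 and 0.86.

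The head module, which binds the polymerase and the general factors and whose scaffold is Med17, was mostly above 0. Of its 9 genes, 2 rose, 1 fell and 6 did not pass, and the median log2 fold change was 0.27. Over all 17389 genes tested, 18.1% rose, 15.8% fell, 9708 lay above 0 and the median was 0.08. Med6 (ENSMUSG00000002679, chr12:82674544-82695995, NCBIM37), a head subunit at the border with the middle module, was at 13.5, 14.3 and 15.7 CPM in the controls. It was at 24.9, 26.2, 26.3 and 28.2 CPM in the tumors labelled WDR11OE, so that each of these lay above each control. Its log2 fold change was 0.86 (SE 0.09, adjusted p = 0.00115) and 0.57 with the GC trend removed, where it also passed. Med20, which pairs with Med18 at the mobile jaw of the head, was at 31.0, 27.8 and 28.0 CPM in the controls and at 47.7, 43.2, 45.8 and 45.7 CPM in the others. The groups did not overlap, and the log2 fold change was 0.66 (SE 0.07, adjusted p = 0.00118). Its partner Med18 did not pass (0.27, adjusted p = 0.165). Of the exon bases of Med20, 21.4% are shared with the pseudogene Gm9183 on the opposite strand and 7% with Gm20517 on the same strand. The exon annotation gives the name Med20 to the gene that the counts call Gm20517. The values here are those of the row named Med20 in the counts, and those of the Gm20517 row are not given.

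Med22 was the one head gene that fell. It was at 81.0, 86.1 and 93.7 CPM in the controls and at 77.8, 75.1, 72.6 and 65.2 CPM in the tumors labelled WDR11OE. The log2 fold change was −0.26 (SE 0.08, adjusted p = 0.0491), close to the threshold, and the call was lost in 15 of the 18 alternatives. The scaffold Med17 was at 37.0, 35.6 and 44.7 CPM against 46.4, 46.2, 45.8 and 44.7 CPM, with a log2 fold change of 0.23 (adjusted p = 0.0920). Its groups met at 44.7 CPM. The head genes Med30 (0.54, adjusted p = 0.0518), Med11 (0.30), Med8 (0.26) and Med28 (0.25) were positive without passing the test. Med28 and Med30 did not overlap between the groups.

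The middle module, which joins head and tail and relays the activators, held changes in both directions. Of its 10 genes, 3 rose, 2 fell and 5 did not pass, beside 18.1% higher and 15.8% lower of all genes tested. The median log2 fold change was 0.12, which turned to −0.04 with the length trend and to −0.11 with GC and length trends removed. Med31, a small subunit next to Med7 at the end of the middle module, was at 7.28, 6.94 and 8.27 CPM in the controls and at 14.9, 14.7, 14.0 and 14.2 CPM in the tumors labelled WDR11OE. Each of the latter was above each control, and the log2 fold change was 0.95 (SE 0.12, adjusted p = 0.00151), or 0.86 with the GC trend removed. Per kilobase of exon it was among the lower members in the controls, at 4.33 CPM, but not in the tumors labelled WDR11OE, at 8.36 CPM. Of its exon bases, 26.3% are shared with a lincRNA on the opposite strand. Med7 and Med21, which pair as the hinge of the module, rose by a log2 fold change of 0.44 (adjusted p = 0.00675) and 0.40 (adjusted p = 0.0169). With the GC trend removed the changes were 0.11 and 0.04 and neither passed. They too share exon bases with genes on the opposite strand, 21.2% for Med7 and 19.6% for the largest overlap of Med21. Med10, with 96.3% of its exon bases shared in this way, had a log2 fold change of 0.28 (adjusted p = 0.166), and its reads cannot be told apart from those of Gm17282 if the counting did not use strand.

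The fallen members of the middle module were Med1 and Med26. Med1, the subunit that meets nuclear receptors, was at 151, 155 and 166 CPM in the controls and at 108, 111, 123 and 105 CPM in the tumors labelled WDR11OE. The groups were well apart, with a log2 fold change of −0.49 (SE 0.08, adjusted p = 0.00314) and −0.61 with the GC trend removed. Med26, which links the complex to elongation factors, was at 18, 16.4 and 17.7 CPM against 12.9, 13.7, 12.8 and 8.78 CPM. Its log2 fold change was −0.53 (SE 0.17, adjusted p = 0.0454), the lowest of the module, and it was −0.23 and did not pass with the GC trend removed. The call of Med26 was lost in 13 of the 18 alternatives. Med14, the backbone that ties head, middle and tail together, was at 91.6, 84.6 and 90.2 CPM in the controls and 71.8, 74.3, 86.4 and 79.1 CPM in the tumors labelled WDR11OE. The groups overlapped through replicate 3, and the log2 fold change was −0.19 (adjusted p = 0.107). Med14 and Med19 (−0.21, adjusted p = 0.0823) passed with the GC trend removed, at −0.45 and −0.34. Med4 (0.16) and Med9 (0.08) did not pass in the TMM fit or the GC fit.

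The tail module, where many activators bind, held both members that fell at least 2-fold. Of its 7 genes, 4 fell, 1 rose and 2 did not pass, beside 15.8% lower and 18.1% higher of all genes tested. The median log2 fold change was −0.47, which was −0.06 with GC and length trends removed together. Med25 (ENSMUSG00000002968, chr7:52134761-52147779, minus strand, NCBIM37) encodes a subunit that binds activation domains. It was at 56.5, 59.9 and 59.6 CPM in control replicates 1 to 3, or 58.6 ± 1.88 (SD, n = 3). In the tumors labelled WDR11OE it was at 27.4, 28.4, 29.9 and 28.9 CPM, or 28.6 ± 1.01 (SD, n = 4). Each of these was below each control, with little spread within either group. The log2 fold change was −1.03 (SE 0.06, adjusted p = 0.000858). It was −0.64 with the GC trend removed (adjusted p = 0.00221 in that fit), and over all alternatives it lay between −1.12 and −0.61 with an adjusted p between 1.78e-36 and 0.0064.

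Med15 (ENSMUSG00000012114, chr16:17651301-17723040, minus strand, NCBIM37), a tail subunit known as a target of SMAD and sterol-response factors, fell the most of the complex. It was at 39.0, 37.2 and 39.0 CPM in the controls and at 13.2, 14.8, 19.3 and 18.7 CPM in the tumors labelled WDR11OE. The groups were far apart, and WDR11OE replicates 1 and 2 were the lowest. The log2 fold change was −1.22 (SE 0.14, adjusted p = 0.00138) and −1.03 with the GC trend removed. Med16, at 24.5, 22.4 and 27.1 CPM against 13.6, 15.1, 16.5 and 16.4 CPM, fell by 0.68 on the log2 scale (SE 0.11, adjusted p = 0.00391). Med24, which joins Med16 and Med23 in the tail, was at 81.8, 78.7 and 91.7 CPM against 61.1, 57.4, 61.1 and 63.4 CPM and fell by 0.47 (SE 0.07, adjusted p = 0.00325). Both kept the call with the GC trend removed and lost it when GC and length trends were removed together.

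Med23, another activator-binding tail subunit, moved the other way. It was at 62.9, 68.4 and 73.1 CPM in the controls and at 88.9, 78.8, 81.6 and 96.2 CPM in the tumors labelled WDR11OE, without overlap. The log2 fold change was 0.34 (SE 0.09, adjusted p = 0.0254), and it was 0.23 without passing when the GC trend was removed. Med27 (0.08) and Med29 (0.03) did not pass and had adjusted p-values of 0.659 and 0.897. These genes are placed in the tail here and in the head by other accounts. With Med27 to Med30 all in the head, the tail held 5 genes, of which 4 fell and 1 rose, with a median of −0.68, and the head held 11 genes with a median of 0.26.

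**Figure D2:**
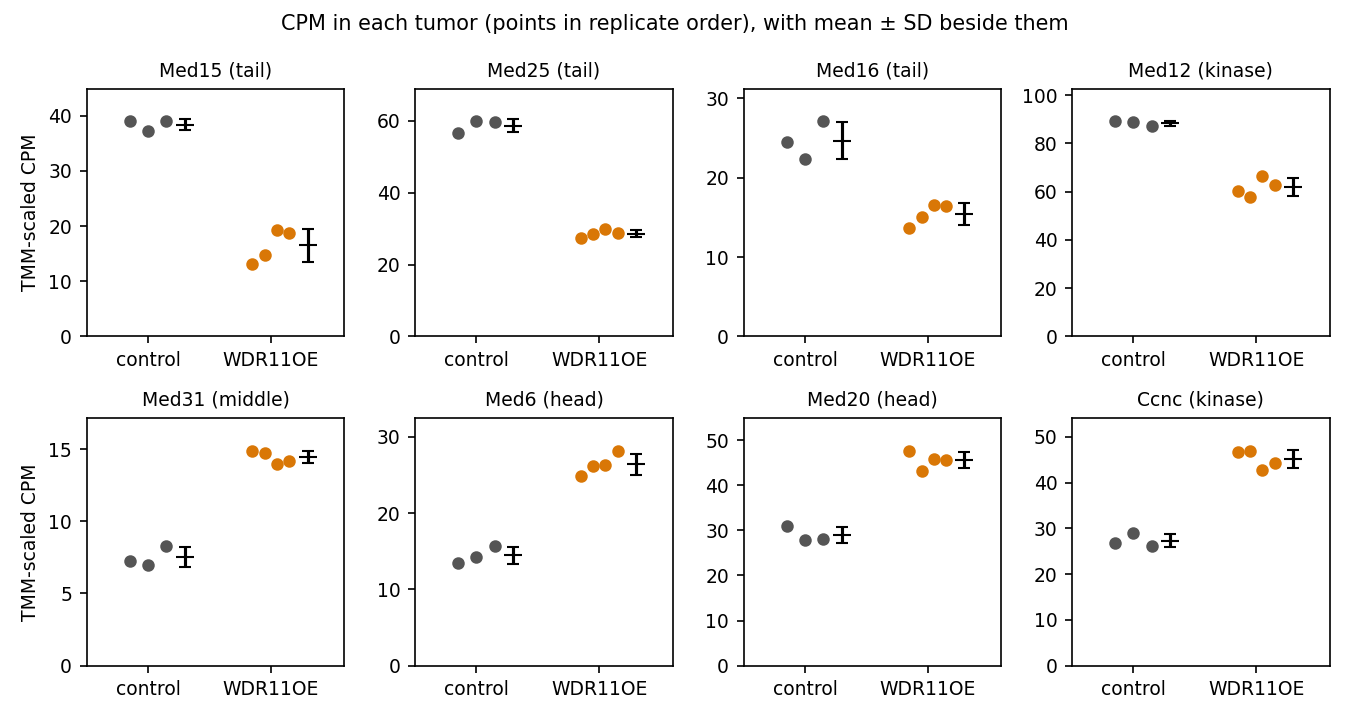
TMM-scaled CPM (y axis, from 0) of 8 Mediator genes in the 3 control tumors and the 4 tumors labelled WDR11OE, with the mean ± SD beside the points. Med15, Med25, Med16 and Med12 were lower and Med31, Med6, Med20 and Ccnc higher in the tumors labelled WDR11OE, without overlap of the groups.

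The kinase module, which phosphorylates activators and the polymerase and keeps Mediator off it, mostly lay below 0. Of its 7 genes, 2 fell, 1 rose and 4 did not pass, with a median log2 fold change of −0.25. Of all 17389 genes tested, 15.8% fell, 18.1% rose and 7681 lay below 0. The median of the module was −0.44 with the GC trend removed, where 2 fell and none rose, beside 14.3% and 11.2% of all genes. It was −0.14 with the length trend removed. Ccnc, the cyclin partner of both kinases, was at 26.9, 28.9 and 26.1 CPM in the controls and at 46.6, 47.0, 42.8 and 44.2 CPM in the tumors labelled WDR11OE. The groups did not overlap and the log2 fold change was 0.72 (SE 0.07, adjusted p = 0.00105). With the GC trend removed it was 0.14 and did not pass, and the exons of Ccnc hold the least GC of the 33 genes, 35.7%. Med12, the subunit that activates the kinase, was at 89.2, 88.9 and 87.2 CPM against 60.2, 58.0, 66.7 and 62.7 CPM. Its log2 fold change was −0.51 (SE 0.06, adjusted p = 0.00156) and −0.44 with the GC trend removed. It lost the call, as did Med1, when GC and length trends were removed together, and 9.72% of its exon bases are shared with Nlgn3 on the same strand. Med13, which docks the module on the core complex, was at 186, 190 and 183 CPM against 154, 144, 168 and 162 CPM. The groups did not overlap, with a log2 fold change of −0.25 (SE 0.07, adjusted p = 0.0336). That of Med13 deepened to −0.64 with the GC trend removed, and the call was lost in 10 of the 18 alternatives.

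Cdk8, Med12 and Med13 each have a paralog that takes the same place, and the balance of each pair was read as a ratio within each tumor. Cdk8 was at 56.7, 45.3 and 50.6 CPM in the controls and 51.3, 56.9, 53.1 and 55.1 CPM in the tumors labelled WDR11OE (log2 fold change 0.09). Cdk19 was at 137, 92.9 and 124 CPM against 96.6, 92.9, 112 and 103 CPM (log2 fold change −0.22). The groups overlapped for both kinases. The log2 ratio of Cdk19 to Cdk8, from CPM not corrected for length, was 1.20 ± 0.14 (SD, n = 3) in controls and 0.90 ± 0.15 (SD, n = 4) in the others, a difference of −0.30 (two-sided exact permutation test over 35 splits, p = 0.0857, adjusted p = 0.257 over 3 ratios). With 3 against 4 tumors, no p below 0.0286 was possible, so a change in a single pair could not pass the threshold of 0.05 after adjustment over the 3 ratios, and these tests do not show that the balance was kept. Med13l was at 84.7, 62.2 and 57.4 CPM against 36.7, 38.9, 51.5 and 55.6 CPM, the lowest fold change of the module at −0.58 (SE 0.19, adjusted p = 0.0547). The log2 ratio of Med13l to Med13 differed by −0.33 (exact permutation p = 0.2, adjusted p = 0.3). Much of this rests on control replicate 1, at −1.13, where control replicates 2 and 3 were at −1.61 and −1.67.

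Med12l spread more than any other member in both groups. It was at 10.2, 10.9 and 5.88 CPM in the controls and 3.36, 3.06, 6.13 and 15.8 CPM in the tumors labelled WDR11OE. WDR11OE replicate 4 was the highest and replicates 1 and 2 the lowest of all tumors. The coefficient of variation was 30.2% in controls and 84.3% in the tumors labelled WDR11OE, where the medians over the 33 genes were 7.85% and 7.5%. Its log2 ratio to Med12 differed by −0.11 (exact permutation p = 0.857, adjusted p = 0.857). This ratio was −4.15, −4.23 and −3.44 in WDR11OE replicates 1 to 3 and −1.98 in replicate 4, so the small difference rests largely on replicate 4. The summed CPM of 12 neuron markers followed a like order, at 513, 170 and 82.2 in the controls and 14.4, 32.8, 240 and 782 in WDR11OE replicates 1 to 4. So did that of 7 astrocyte markers, at 666, 614 and 374 against 247, 258, 507 and 940. Zic1, a granule lineage gene, ranked the tumors as Med12l did, at 10.7, 12.1 and 7.63 CPM against 2.06, 1.76, 7.67 and 16.8 CPM. No other gene on the list of granule lineage and tumor genes gave this ranking. WDR11OE replicate 4 was also the highest for Zic2, Pax6, Neurod1 and Mycn, but not for Npr3 or Myc. Zic2 was at 3.33, 4.15 and 2.57 CPM against 4.71, 4.05, 6.93 and 7.33 CPM. P2ry12, a microglial gene inside the Med12l locus on the opposite strand, was at 2.03, 3.12 and 1.44 CPM against 1.21, 1.26, 4.19 and 8.32 CPM. Tmem119, the most abundant of the 8 microglia and macrophage markers, did not follow this order and was at 21.1 CPM in WDR11OE replicate 4, its lowest value. The summed CPM of these 8 markers was 127, 164 and 108 against 83.7, 101, 127 and 177. Of the Med12l exon bases, 16.1% are shared with Igsf10 on the opposite strand, which was at 10.6, 13.6 and 15 CPM against 6.73, 5.81, 6.04 and 4.68 CPM, and so lowest where Med12l was highest. The part of neurons, astrocytes, microglia or granule lineage cells in the Med12l values was not tested.

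**Figure D3:**
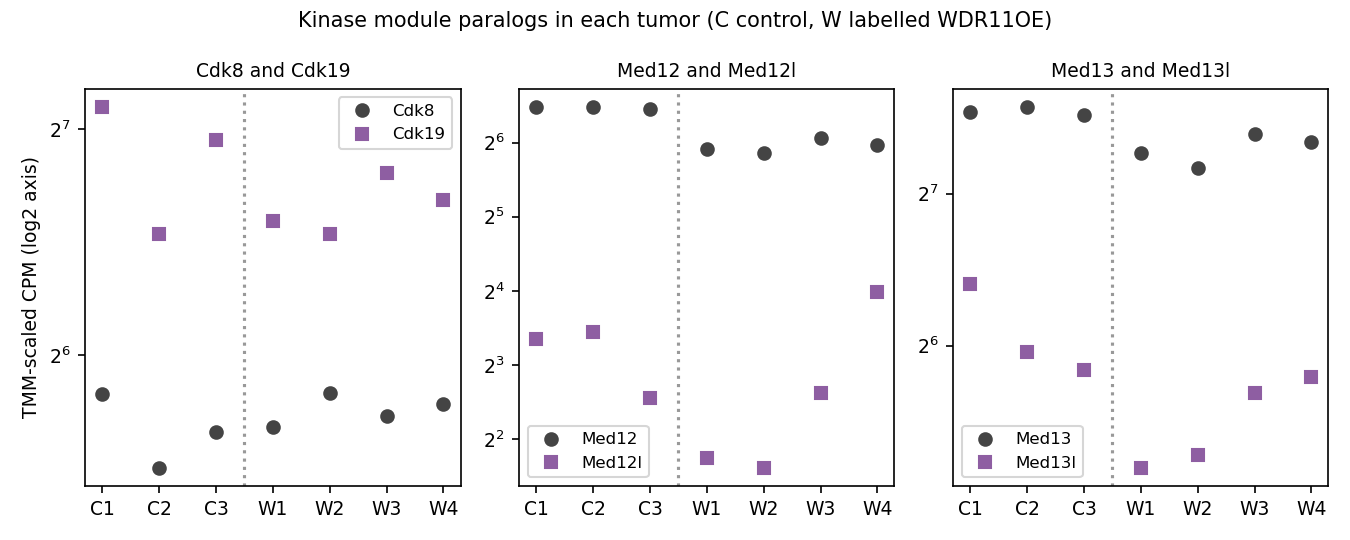
TMM-scaled CPM (log2 y axis, a separate range in each panel) of the kinase module paralogs in each tumor, controls C1 to C3 left of the dotted line and tumors labelled WDR11OE W1 to W4 right of it. Med12l runs from 3.06 CPM in W2 to 15.8 CPM in W4, while Med12 stays between 58.0 and 66.7 CPM in these tumors.

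Levels were compared between genes only per exon length, as CPM per kilobase of exon (RPKM). In the controls Med22 (24.1 ± 1.77, SD, n = 3), Med25 (23.1 ± 0.742) and Cdk19 (20.3 ± 3.87) had the highest RPKM, and neighbors in this order lay within about their spread. Med12l had the lowest RPKM, at 0.864 ± 0.261, followed by Med27 at 3.27 ± 0.256. In the tumors labelled WDR11OE, Med25 was at 11.3 ± 0.399 RPKM (SD, n = 4), below Med22 at 20.1 ± 1.51 and Cdk19 at 17.4 ± 1.44.

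Members that fell were richer in GC than members that rose, with median exon GC contents of 54.6% and 42.6%. Over the 33 genes, Spearman's rho of the log2 fold change with exon GC content was −0.50, and over 14919 protein-coding genes tested it was −0.35. These are descriptions across genes of the same 7 libraries, and genes are not independent replicates. The 11 Mediator genes with the highest GC content (51.7% to 62.2%) held 7 that fell and none that rose, with a median log2 fold change of −0.51, against −0.15 for protein-coding genes in that range. The 11 in the middle (46.7% to 49.7%) held 3 that rose and none that fell, with a median of 0.27 against 0.08. The 11 with the lowest GC content (35.7% to 46.6%) held 2 that fell, Med1 and Med13, and 4 that rose, with a median of −0.19 against 0.30. Over all genes tested, 15.8% fell and 18.1% rose. Only medians were compared within each range, so the counts do not show an excess over genes of like GC content. Med25 has the highest GC content of the complex, 62.2%. Members that fell had a median exon length of 4679 bases and members that rose 2871 bases, and rho with length was −0.44 over the 33 genes and −0.61 after the GC trend was removed, against −0.17 and −0.30 over the protein-coding genes. How much of the module pattern rests on composition was not tested beyond these fits.

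**Figure D4:**
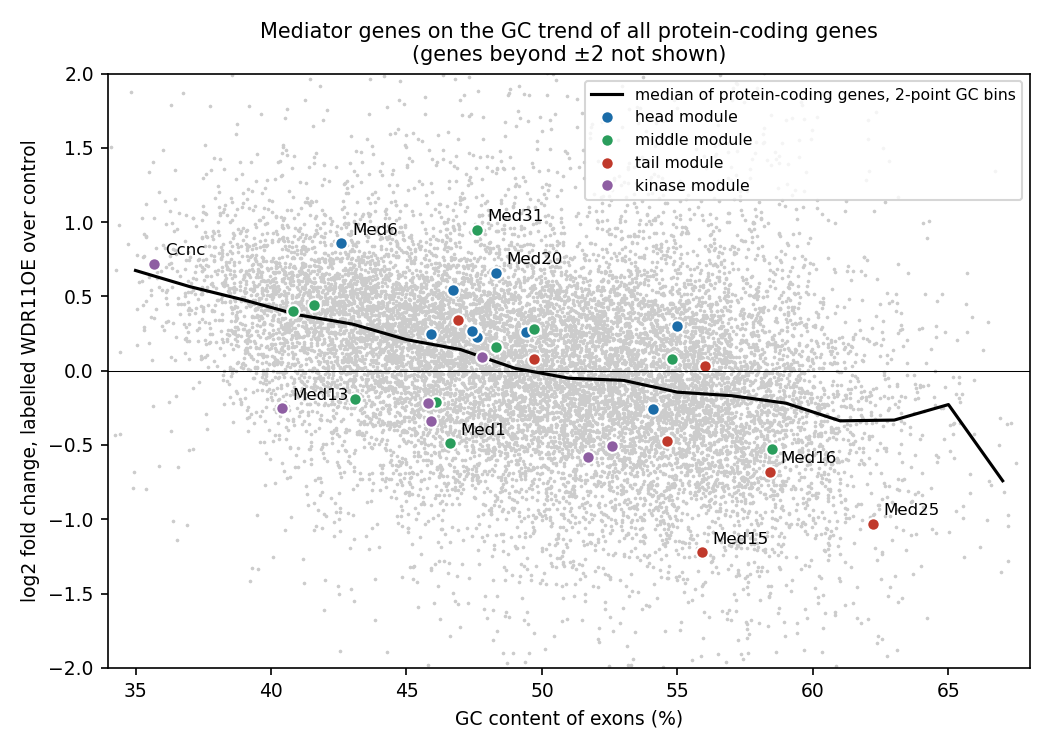
Log2 fold change in the tumors labelled WDR11OE over control (y axis) against exon GC content in percent (x axis) for protein-coding genes (gray), their median in bins (line) and the Mediator genes colored by module. Med25, at 62.2% GC, and Med15 lie below the median of genes with like GC content, Ccnc, at 35.7%, lies close to it, and Med31 lies above it.

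Within 100 kb of Med25 on chromosome 7, 13 of 15 other genes were tested, 2 fell, none rose, 10 had a log2 fold change below 0 and their median was −0.20, where 15.8% of all genes tested fell. Ap2a1, an adaptor of clathrin coats 7.96 kb away, fell by 0.84 on the log2 scale (adjusted p = 0.00118), and kept the call at −0.54 with the GC trend removed. Ptov1, 9.6 kb away on the other side, fell by 0.49 (adjusted p = 0.00955), but with the GC trend removed its log2 fold change was −0.11 and did not pass. Fuz, the nearest gene at 3.67 kb, had a log2 fold change of 0.15 (adjusted p = 0.409). In a longer list of 17 neighbors by name, 16 were tested, 5 fell and 1 rose, with a median of −0.28, beside 15.8% lower and 18.1% higher of all genes and a median of 0.08. With the GC trend removed, 3 fell and 1 rose, with a median of −0.07, beside 14.3% and 11.2% of all genes. The member that fell with the smallest p was Scaf1, at 90.3, 94.2 and 88.1 CPM against 41.3, 43.7, 50 and 48.2 CPM (log2 fold change −0.99, adjusted p = 0.000896). The one that rose was Irf3, at 24.0, 29.6 and 28.7 CPM against 36.6, 35.3, 35.6 and 31.9 CPM (0.35, adjusted p = 0.0302). Prr12 lay lowest, at −1.78 (adjusted p = 0.00169).

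**Figure D5:**
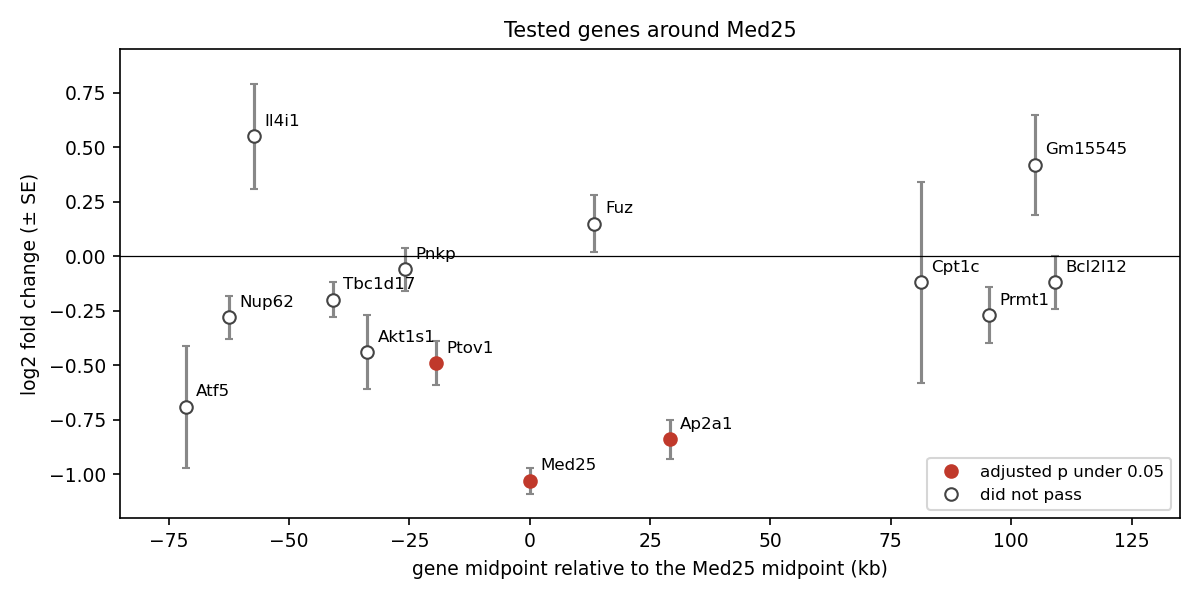
Log2 fold change with 1 standard error (y axis) of the tested genes within 100 kb of Med25, placed by the distance between gene midpoints in kb (x axis). Med25, Ap2a1 and Ptov1 (filled) fell, and Fuz, between Med25 and Ap2a1, lay above 0 without passing the test.

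The machinery that Mediator works with was read in the same way, beside 15.8% lower, 18.1% higher and a median log2 fold change of 0.08 over all genes tested. Of 13 RNA polymerase II subunit genes, 2 fell, a share close to that of all genes, and 5 rose, with a median log2 fold change of 0.13. With the GC trend removed, 2 fell and 4 rose, with a median of 0.26, beside 14.3% lower and 11.2% higher of all genes. Polr2a, the largest, catalytic subunit, was at 245, 242 and 287 CPM in the controls and 75.4, 73.0, 142 and 108 CPM in the tumors labelled WDR11OE, a log2 fold change of −1.37 (SE 0.24, adjusted p = 0.0047), and these values did not overlap. Polr2g, of the stalk, was at 28.9, 31.4 and 35.6 CPM against 51.6, 55.6, 47.5 and 48 CPM (0.67, adjusted p = 0.00262). Of 18 genes of the general transcription factors, 10 rose and 1 fell, with a median of 0.35. Ccnh, the cyclin of the TFIIH kinase, was at 27.2, 26.0 and 25.5 CPM against 44.5, 44.5, 39.6 and 43.5 CPM (0.71, adjusted p = 0.00106), without overlap. Ercc3, a TFIIH helicase, was at 27.5, 34 and 34.5 CPM against 26.7, 25.3, 26.5 and 25.6 CPM (−0.30, adjusted p = 0.0485). With the GC trend removed, 5 of these 18 rose and none fell, beside 11.2% and 14.3% of all genes in that fit, and Ccnh, at 0.28, did not pass.

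Of 15 TFIID subunit genes, 5 rose and 2 fell (median 0.15). Taf7 was at 10.3, 14.4 and 12.1 CPM against 23.2, 23.4, 20.5 and 20.6 CPM (0.84, adjusted p = 0.00392). Taf3 was at 22.4, 26.5 and 27.2 CPM against 13.9, 14.7, 14.9 and 15.5 CPM (−0.78, adjusted p = 0.00171). Neither gene overlapped between the groups. With the GC trend removed, 2 of the 15 rose and 2 fell, close to the shares of all genes in that fit, and the median turned to −0.03. Taf3 kept the call, at −0.90, and Taf7, at 0.46, did not pass. Of 14 genes of transcription elongation (the kinase P-TEFb with its regulators and partners, and the separate cyclin K kinases Cdk12 and Cdk13 with Ccnk), 5 fell and 2 rose (median −0.15). Cdk9, the kinase of P-TEFb, was at 47.4, 45.9 and 57.0 CPM against 25.7, 27.2, 30.8 and 28.3 CPM, a log2 fold change of −0.84 (adjusted p = 0.00145), without overlap. Larp7, which holds P-TEFb in its inactive particle, was at 40.1, 40.3 and 53.3 CPM against 62.2, 66.4, 62.4 and 58.5 CPM (0.48, adjusted p = 0.0161). Ccnk was among the 5 that fell, at −1.07. With the GC trend removed, 8 of the 14 fell and none rose, Larp7 being at 0.40, and the median was −0.34. In that fit 14.3% of all genes were lower and 11.2% higher.

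Cell type markers were read beside these values. Because the libraries are bulk RNA, fewer cells of a type and less RNA per cell cannot be told apart. Counts of markers stand beside 15.8% lower and 18.1% higher of all genes. Of 9 granule lineage and tumor genes, 7 were tested and 1 fell, Myc, the most abundant, and their summed CPM was 1150, 867 and 854 in the controls against 420, 460, 316 and 355. Most of this sum was Myc, which the retrovirus also carries, and without it the other 8 genes summed to 41.1, 45.3 and 41.7 CPM against 30.7, 28.9, 38.3 and 66.5 CPM. Atoh1, a defining marker of granule neuron progenitors, was at 0 in all 7 tumors, and Barhl1 was under 1 CPM. All 8 tested skeletal muscle markers rose, Myh4 being the most abundant, with summed CPM of 5.25, 3.51 and 3.16 against 90.0, 57.2, 133 and 45.1 CPM. Of 12 neuron markers none passed the test in either direction. Of 6 endothelial markers 2 fell, with summed CPM of 112, 142 and 129 against 95.8, 88.8, 86.4 and 86.8. Of 7 astrocyte markers 1 rose, and none of 8 oligodendrocyte, 8 microglia or 4 blood markers passed the test. The part of these cells in the Mediator values was not tested.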

How the data were processed

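Per the labels, total RNA was made into TruSeq RNA v2 libraries, while the methods speak of stranded sequencing. The methods name tumorspheres as well as tumor chunks as sources of RNA, and the abstract of the study speaks of tumorspheres for the transcriptome. The strand setting of the counting is not given in the sources used here. The authors mapped reads to NCBIM37 with the StrongArm pipeline, whose notes name STAR and BWA, counted them per gene with HTSeq on GENCODE and deposited the raw counts without normalization. No columns of the table were left unused.

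From these deposited counts, 17389 genes were kept by filterByExpr, scaled by TMM and tested with edgeR 4.0.16 (two-sided quasi-likelihood test, condition only, all 7 tumors, Benjamini-Hochberg) in R 4.3.3, with limma 3.58.1 (voom) and DESeq2 1.42.0 as alternatives. Ratios used log2 CPM with a prior count of 2. GC content and exon length came from GENCODE on NCBIM37, and the GC trend was removed with loess of span 0.3. The scripts were tested on simulated data. The members and lists were chosen with earlier results of these data known. Values per tumor are given for members past 2-fold, the smallest p and both ends of each module, Med1, Med12, Med14, Med23 and the paralogs, and from each list of other machinery for the smallest p in each direction; other genes named, such as Med16, Med17, Med20, Med24 and Ccnk, were chosen after their values were seen. Labels do not tie the tumors to separate cultures, so p-values measure the spread between these samples.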

Additional observations from a re-analysis of the deposited data

Results flagged for a closer look

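Among 38 values checked in the 4 tumors labelled WDR11OE, one tumor stood apart from the rest for Med26, which was at 8.78 CPM in replicate 4 and at 12.9, 13.7 and 12.8 CPM in replicates 1 to 3. Chance sets about 1 in 20 such groups apart.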

How the results depend on the processing

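The direction of every called member held in all 18 alternatives except Med21, whose log2 fold change was −0.08 with GC and length trends removed together, a choice made after seeing the data, as was the removal of the length trend alone. Lower members numbered 9, and 4 with both trends removed, of which 3 were among the 9, where 11.7% of all genes were lower and 10.2% higher, against 15.8% and 18.1% in the TMM fit. Their number lay between 6 and 9 when single tumors were left out, where 11.7% to 16.9% of all genes were lower. Higher members numbered 7, and 3 with the GC trend removed, 4 with both trends removed, 4 with WDR11OE replicates 1 and 2 summed, and 4 to 8 when single tumors were left out, with 4 without WDR11OE replicate 1. The share of all genes that were higher fell alongside, to 11.2% (GC), 10.2% (both), 9.51% (summed, with 12.2% lower) and 9.12% (without WDR11OE replicate 1). It was 14.5% (13.9% lower) without control replicate 1, 11.6% (12.3% lower) without control replicate 2 and 9.65% (12.8% lower) without WDR11OE replicate 2. Median log2 fold changes moved to −0.33 (GC), −0.37 (length), −0.06 (both) and −0.68 (Med27 to Med30 in the head) for the tail, to −0.44 (GC) and −0.14 (length) for the kinase module, and to −0.04 (length) and −0.11 (both) for the middle module, which lay between 0.03 (without control replicate 1) and 0.22 (without control replicate 3) when single tumors were left out. Wdr11 passed the test with upper quartile scaling (0.19), length (0.32) or both trends removed (0.29). Against the same falls over all genes, called genes moved from 7 to 4 for the polymerase (replicates 1 and 2 summed, or both trends; 4 to 7 when single tumors were left out, with 4 without control replicate 1 or 2 or WDR11OE replicate 1 or 2), from 7 to 4 (GC) and 3 (both) for TFIID, from 11 to 5 (GC) and 4 (both) for the general factors, and from 7 to between 4 and 7 for the elongation genes when single tumors were left out, with 4 without control replicate 2. The causes were not tested. No paired analysis was possible because the labels tie no tumor labelled WDR11OE to a control. The labels give the tumors no replicate numbers either, and replicates are numbered here in the order of the sample records. With 3 and 4 tumors a group, the spread between tumors limits the precision more than depth does.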
